A study of Mus musculus with 10 samples.

Results

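Cyp2b9, Cyp2b13 and Cyp2b10 (cytochrome P450 enzymes of the Cyp2b subfamily), Cyp2c55 and Nr1i3 are described here in mouse liver. These members are 5 of the 56748 genes in the count table, found by symbol as the expressed Cyp2b genes, a further gene known to answer the receptor CAR, and the gene that encodes CAR. They were chosen with the difference between knockout and control livers known, so their own values in that contrast are a description and carry no test. The 5 libraries labelled ACSS2-HKO (HKO here) came from livers with a liver cell specific knockout of Acss2, which encodes an enzyme that turns acetate into acetyl-CoA. The 5 libraries labelled ACSS2-flox (flox here) are the controls. All 10 came from livers of mice kept for 4 months on the same diet, high in fat and fructose, a model of metabolic steatohepatitis, and no group on a plain diet was analysed here. The labels give no Cre line, strain, age or sex, nor whether each library came from its own animal, so the errors measure only the spread between these libraries.

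CAR, the constitutive androstane receptor, is a nuclear receptor of hepatocytes. It is held in the cytoplasm by a chaperone complex, moves into the nucleus when phenobarbital-like compounds act on the cell, pairs with RXR and raises genes of drug and steroid clearance. Cyp2b10 is its classical target in the mouse, and Cyp2c55 is raised by activators of CAR and of its sister receptor PXR. Cyp2b9 and Cyp2b13 are steroid-hydroxylating relatives that are known to be more abundant in livers of female than of male mice, a difference set by the pattern of growth hormone secretion.

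Cyp2b9 and Cyp2b10 transcripts fell in HKO livers, while that of the receptor differed by less than the spread between libraries. Cyp2b9 averaged 1.86 ± 1.77 CPM (counts scaled to library size by TMM) in HKO and 330.0 ± 197.8 CPM in flox (SD, n = 5 each). Nr1i3 averaged 61.0 ± 13.4 CPM in HKO and 60.0 ± 20.5 CPM in flox. Of the 4 genes that passed the filter on low counts, Cyp2b9 and Cyp2b10 were called lower in HKO (edgeR quasi-likelihood test, Benjamini-Hochberg adjusted over all 14068 genes tested), against 3.07% of all genes (3.99% in either direction). Their HKO libraries also lay wholly below the flox libraries, which was so for 3.46% of all genes, and 5.37% did not overlap in either direction. The members were picked from this contrast, so nothing is read from these counts. Cyp2b9 and Cyp2b10 passed the filter through the flox libraries, as they fell to 2 and 1 counts in HKO replicate 2. Cyp2b13 did not pass the filter, because flox replicate 4 held only 4 of its counts.

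**Figure D1:**
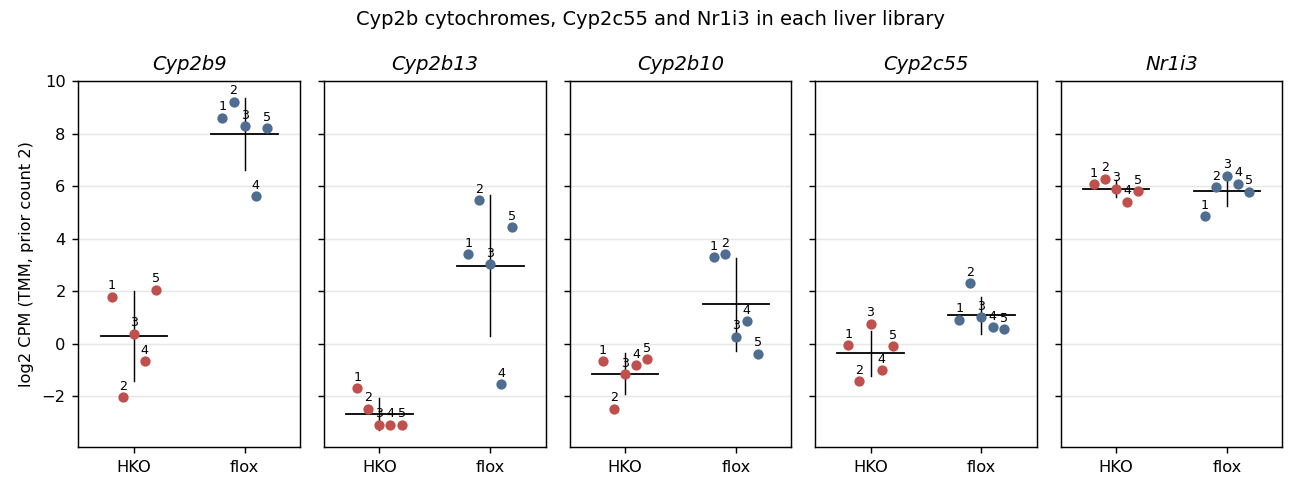
Level of each gene in each library, as log2 CPM with a prior count of 2. Points are libraries, marked with their replicate number, horizontal bars are group means and vertical bars 1 SD (n = 5 per group). The HKO points of Cyp2b9 lie below all flox points, while the groups overlap for Nr1i3.

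Total counts ran from 15413648 to 19275358 in HKO and from 16933436 to 17196774 in flox. Acss2 itself averaged 49.4 ± 7.47 CPM in HKO and 80.8 ± 29.5 CPM in flox, and its log2 fold change of -0.71 ± 0.21 (SE) did not pass (edgeR adjusted p = 0.0858). It passed in 4 of 17 alternatives, 1 of them the fit without flox replicate 3 (edgeR adjusted p = 0.0460). The counts cover the whole gene, deleted exons or not. Hepatocyte markers summed to 133336 to 175694 CPM in HKO and 108272 to 164290 CPM in flox, and 0 of 14 were called by edgeR or lower by DESeq2, which called 2 higher, while 3 had an unadjusted p under 0.05. All 15 macrophage markers were lower in HKO, with sums of 136 to 279 CPM in HKO and 365 to 916 CPM in flox, and their part in the results below was not tested. Of other markers, 1 of 9 sinusoidal endothelial, 1 of 9 stellate and fibroblast and 2 of 6 lymphocyte genes were lower. None of 5 cholangiocyte genes was called by edgeR or DESeq2 (0 with an unadjusted p under 0.05), nor was the 1 tested gene of intestine and kidney (likewise 0). The Y-linked genes Ddx3y, Eif2s3y, Kdm5d and Uty were read in every library, with 2958 to 3886 counts in HKO and 2742 to 3927 in flox, while Xist had at most 11 counts in any library, so the libraries of both groups read as male. In whole liver, fewer cells of a type and less RNA per cell cannot be told apart.

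Nr1i3 (ENSMUSG00000005677), the receptor gene on chromosome 1, stood at 67.7, 78.5, 60.1, 42.6 and 55.9 CPM in HKO replicates 1 to 5. In flox replicates 1 to 5 it stood at 28.8, 62.8, 84.5, 68.7 and 55.4 CPM. The groups overlapped, and both the lowest and the highest library were flox. The log2 fold change of HKO over flox was 0.02 ± 0.24 (SE), and it stayed between -0.15 and 0.18 in the alternatives, below 0 in 5 of 17. The level is uncertain in one respect, because Tomm40l lies on the other strand over most of the gene and had 44.1% as many counts. Tomm40l encodes a mitochondrial import channel protein, and it differed by a log2 ratio of -0.17 ± 0.27 and did not pass (edgeR adjusted p = 0.820). Without word on the use of strand in counting, reads of the pair may not have been kept apart.

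Most genes that work with CAR did not pass the test either. Of 31 tested partners and regulators of CAR, 2 were higher in HKO, against 0.917% of all genes tested, and 29 did not pass, with a median log2 fold change of 0.03 against 0.01 over all genes. Rxra, the usual heterodimer partner, averaged 353 ± 81.5 CPM in HKO and 369.9 ± 44.4 CPM in flox (log2 fold change -0.07 ± 0.17). Egfr, the receptor whose signal keeps CAR in the cytoplasm, averaged 554 ± 225 CPM in HKO and 178 ± 74.1 CPM in flox. Egfr rose by 1.64 ± 0.31 on the log2 scale (edgeR adjusted p = 0.0133) and was called in all 17 alternatives. Foxa1, a pioneer factor of liver enhancers, averaged 42.0 ± 8.32 CPM in HKO and 25.0 ± 4.99 CPM in flox (log2 fold change 0.75 ± 0.17, edgeR adjusted p = 0.0256). The Foxa1 call was lost without HKO replicates 1 or 5 or flox replicates 2 or 5 (edgeR adjusted p = 0.0555, 0.0515, 0.0592 and 0.0580), which left Egfr as the 1 called gene of the list.

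Cyp2b10 (ENSMUSG00000030483), the marker gene of CAR activity, was low in both groups. It stood at 0.519, 0.0630, 0.330, 0.450 and 0.551 CPM in HKO replicates 1 to 5. In flox replicates 1 to 5 it stood at 9.67, 10.7, 1.09, 1.72 and 0.655 CPM. All HKO libraries lay below all flox libraries, though by a narrow margin, and flox replicates 1 and 2 stood well above the other flox libraries. The level rests on 31 counts in HKO and 396 in flox. Means were 0.383 ± 0.198 CPM in HKO and 4.76 ± 4.96 CPM in flox, a log2 fold change of -3.60 ± 0.80 (SE), and -2.91 at its smallest in the alternatives.

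Cyp2c55 (ENSMUSG00000025002), a cytochrome of chromosome 19 that oxidises fatty acids such as arachidonate, stood at 0.843, 0.252, 1.59, 0.386 and 0.827 CPM in HKO replicates 1 to 5. It stood at 1.77, 4.87, 1.91, 1.43 and 1.36 CPM in flox replicates 1 to 5. The highest HKO library, replicate 3, lay within the flox range, and flox replicate 2 was the highest of all. With 62 counts in HKO and 196 in flox the log2 fold change was -1.53 ± 0.49 (SE), and it lay between -1.95 and -1.05 in the alternatives.

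Other genes raised by CAR activators were found on both sides. Of 37 tested genes of this list, 7 were lower and 2 higher in HKO and 28 did not pass, with a median log2 fold change of -0.19 against 0.01 over all genes, of which 3.07% were lower and 0.917% higher. Gstm3, a mu class glutathione transferase, averaged 5.35 ± 1.81 CPM in HKO and 57.1 ± 45.4 CPM in flox (log2 fold change -3.41 ± 0.48, edgeR adjusted p = 0.00362). Gstm2, of the same family, averaged 20.4 ± 9.21 CPM in HKO and 74.4 ± 31.1 CPM in flox (log2 fold change -1.86 ± 0.32, edgeR adjusted p = 0.00978). Cyp2a5, a coumarin hydroxylase, averaged 305 ± 82.9 CPM in HKO and 721 ± 269 CPM in flox, and it fell, at a log2 ratio of -1.24 ± 0.24 (edgeR adjusted p = 0.0148). The sulfotransferase gene Sult5a1 rose, with 11.2 ± 4.71 CPM in HKO and 2.63 ± 1.45 CPM in flox (log2 fold change 2.08 ± 0.38, edgeR adjusted p = 0.0110). These calls held in all 17 alternatives. Of this list, 41 genes were in the table and 37 passed the filter on low counts. Without the filter, 9 of the 41 were lower and 3 higher in HKO, against 626 lower and 214 higher of all 28708 genes. Gsta1, an alpha class glutathione transferase gene outside that rule and named after its values were seen, did not pass this filter. It averaged 0.127 ± 0.140 CPM in HKO and 7.33 ± 8.25 CPM in flox, where the SD exceeded the mean.

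The remaining called genes of that list, named after their values were seen, were Abcb1a, Gstm1, Aldh1a1 and Aldh1a7 (lower) and Gstp1 (higher). Abcb1a, a drug efflux pump, was called throughout. Without single libraries the calls of Gstm1 (HKO replicates 1, 2 and 4 and flox replicates 2 and 5), Aldh1a1 (every HKO replicate and flox replicates 1 and 2), Aldh1a7 (HKO replicates 2 and 4) and Gstp1 (HKO replicates 1, 2 and 4 and flox replicates 2 and 3) were lost. The largest edgeR adjusted p over all alternatives was 0.0623 for Gstm1, 0.116 for Aldh1a1, 0.0560 for Aldh1a7 and 0.0722 for Gstp1. Sult1e1 and Sult2a1 also stand in the list of female-biased genes below, and Gstp1 in that of male-biased genes. Chosen after its values were seen, Cyp3a11, which encodes the main target of PXR, differed by a log2 value of 0.30 ± 0.18 and did not pass (edgeR adjusted p = 0.436). Nor did Por, the reductase that supplies electrons to cytochromes, at 0.21 ± 0.25 (edgeR adjusted p = 0.745).

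**Figure D2:**
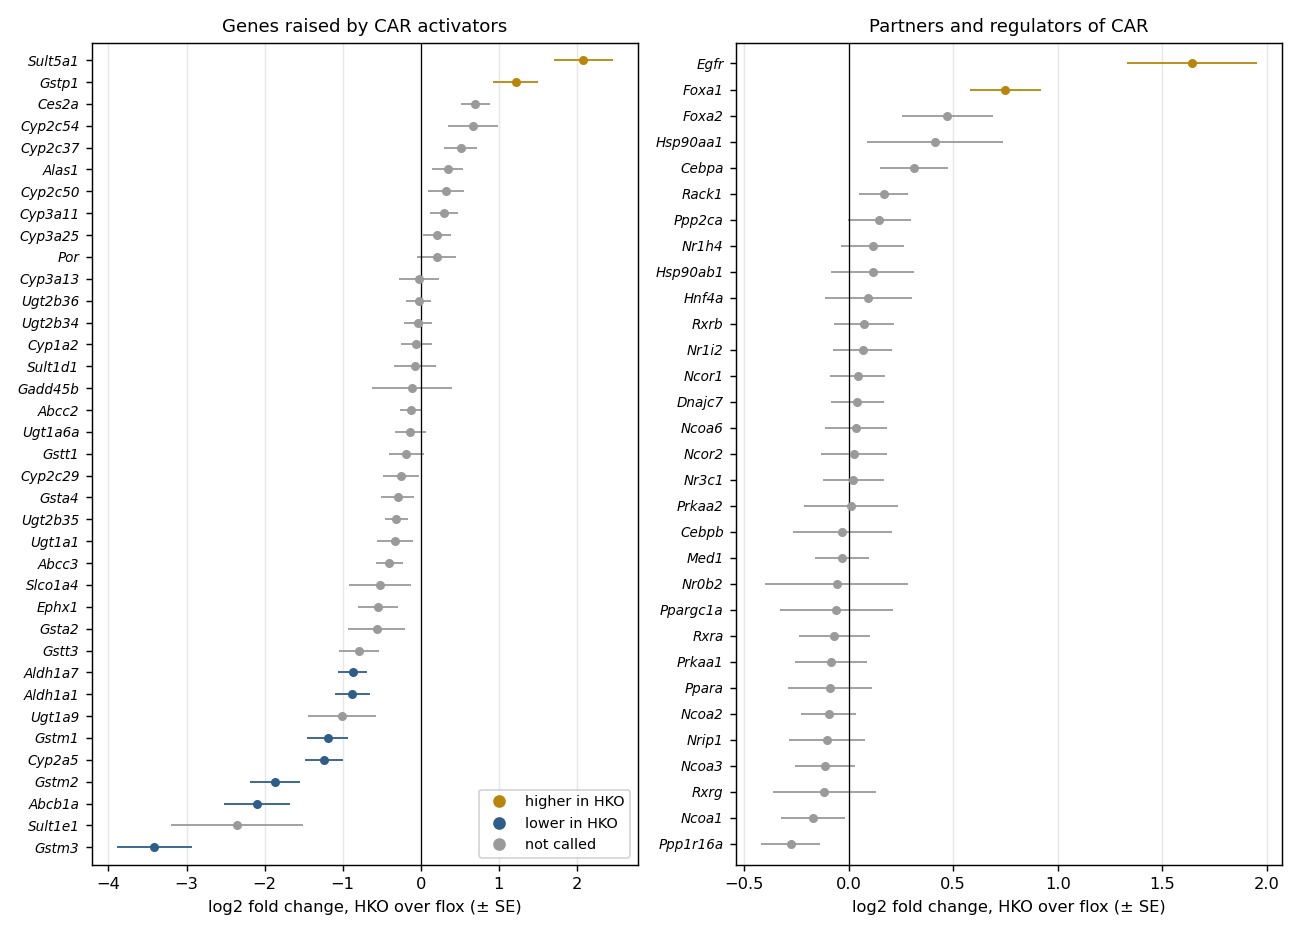
Log2 fold change of HKO over flox with its SE (n = 5 per group) for the tested genes raised by CAR activators (left, 37 genes) and for partners and regulators of CAR (right, 31 genes). Coloured points passed the edgeR test. The left panel holds 7 lower and 2 higher genes, the right panel 2 higher genes.

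Cyp2b9 and Cyp2b13 had the largest differences among the members, and they are neighbours with almost the same promoter. The windows from 250 bases before to 50 bases after the start of transcription (RefSeq, GRCm38.p6) are shown to let the 3 Cyp2b genes be compared. All lie on the plus strand, Cyp2b9 at chr7:26173159-26173458, Cyp2b13 at chr7:26061245-26061544 and Cyp2b10 at chr7:25897408-25897707. In Cyp2b9 and Cyp2b13 the capitals mark the bases at which that pair differs, and in Cyp2b10 they mark the bases that do not match Cyp2b9 in a global alignment.
Cyp2b9: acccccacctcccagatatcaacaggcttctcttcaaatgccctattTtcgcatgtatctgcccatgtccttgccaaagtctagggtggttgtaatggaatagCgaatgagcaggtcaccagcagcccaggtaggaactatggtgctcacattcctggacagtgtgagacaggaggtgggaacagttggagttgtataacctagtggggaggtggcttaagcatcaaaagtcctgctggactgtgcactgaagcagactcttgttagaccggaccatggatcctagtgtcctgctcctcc
Cyp2b13: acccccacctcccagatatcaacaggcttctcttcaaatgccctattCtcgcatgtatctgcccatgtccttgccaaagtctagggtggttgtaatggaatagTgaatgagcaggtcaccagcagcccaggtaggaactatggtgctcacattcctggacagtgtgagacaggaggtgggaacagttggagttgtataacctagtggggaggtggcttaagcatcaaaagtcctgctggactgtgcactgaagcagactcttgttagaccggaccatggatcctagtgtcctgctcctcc
Cyp2b10: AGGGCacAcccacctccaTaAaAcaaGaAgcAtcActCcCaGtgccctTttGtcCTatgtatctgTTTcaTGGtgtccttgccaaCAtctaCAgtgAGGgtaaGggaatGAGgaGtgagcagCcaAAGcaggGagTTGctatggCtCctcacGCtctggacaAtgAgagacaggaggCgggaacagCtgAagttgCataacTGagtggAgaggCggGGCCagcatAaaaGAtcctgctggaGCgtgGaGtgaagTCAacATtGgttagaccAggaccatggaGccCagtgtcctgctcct

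The windows of Cyp2b9 and Cyp2b13 matched at 298 of 300 bases, with the substitutions T48C and C104T (the base of Cyp2b9, the position from the 5′ end of the window, the base of Cyp2b13). That of Cyp2b10 matched Cyp2b9 at 76.1% of the aligned bases, with 69 mismatches. The nuclear receptor hexamer AGGTCA, searched on both strands, was found once in Cyp2b9 and once in Cyp2b13, at positions 113 to 118 of the window. It was not among these letters of Cyp2b10, Cyp2c55 or Nr1i3, and 16.3% of the 32851 RefSeq promoter windows hold it. The direct repeat of AGGTCA with 4 bases between its copies holds the hexamer by construction, and only 0.0152% of windows have it. Neither it nor the STAT palindrome TTCNNNGAA (in 8.30%) was in any of the 5 windows. Inexact copies and sites further from the start of transcription were not searched, so nothing is read from this absence.

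Cyp2b9 (ENSMUSG00000040660) stood at 3.37, 0.126, 1.19, 0.514 and 4.08 CPM in HKO replicates 1 to 5. In flox replicates 1 to 5 it stood at 392, 599.7, 311, 49.6 and 299 CPM. No HKO library came near the lowest flox library, replicate 4, which itself stood far below the other flox libraries. The flox mean was 178 times that of HKO, and the log2 fold change was -7.45 ± 0.80 (SE), on 154 counts in HKO and 28730 in flox. It lay between -7.98 and -7.12 in the alternatives.

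Cyp2b13 (ENSMUSG00000040583) had 3, 1, 0, 0 and 0 counts in HKO replicates 1 to 5. In flox replicates 1 to 5 it had 173, 728, 148, 4 and 431 counts, or 10.6, 44.3, 8.08, 0.229 and 21.7 CPM. Flox replicate 4 was again the lowest control and lay just above the highest HKO library. A library with no count allows up to 3 counts, which was worth 0.165 to 0.198 CPM in HKO replicates 3 to 5. Over the summed counts, 4 in HKO and 1484 in flox, the scaled flox level was 336 times that of HKO, with an exact 95% interval of 131 to 1236 that covers counting error only.

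The pair could share reads. Their longest coding transcripts were 91.7% identical over the aligned bases, and 10.8% of all 50-base stretches of Cyp2b13 also occur in Cyp2b9, namely 198 of 1826, against 146 that occur in Cyp2b10. How reads with several matches were counted could not be read from the labels. The share of Cyp2b13 among the counts of both genes was 5.45% (95% Clopper-Pearson interval 1.14 to 15.1) in HKO replicate 1, and the other HKO libraries held at most 1 count of it. It differed among the flox libraries beyond counting error, as it was 2.63% (2.26 to 3.05) in flox replicate 1 and 2.54% (2.15 to 2.97) in flox replicate 3. It was 6.88% (6.41 to 7.38) in flox replicate 2, 6.78% (6.17 to 7.43) in flox replicate 5 and 0.460% (0.126 to 1.17) in flox replicate 4. With the counts of both genes summed into 1, the log2 fold change of Cyp2b9 was -7.49.

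Of the counts of the 3 Cyp2b genes, Cyp2b9 took 50% to 88.1% in the HKO libraries, on 4 to 84 counts, and 91.6% to 97.1% in the flox libraries. Per kilobase of deposited gene length, the order of mean levels in HKO was Nr1i3 (13.8 ± 3.03 CPM per kb), Cyp2b9 (0.989 ± 0.941), Cyp2c55 (0.390 ± 0.262), Cyp2b10 (0.181 ± 0.0936) and Cyp2b13 (0.0275 ± 0.0450). In flox the order of these mean levels was Cyp2b9 (176 ± 105 CPM per kb), Nr1i3 (13.6 ± 4.64), Cyp2b13 (9.06 ± 9.13), Cyp2b10 (2.25 ± 2.35) and Cyp2c55 (1.14 ± 0.738). The ranges of mean ± SD of neighbours in that order overlapped, except for Nr1i3 over Cyp2b9 and Cyp2b10 over Cyp2b13 in HKO and for Cyp2b9 over Nr1i3 in flox. The other Cyp2b genes were hardly read, as Cyp2b19 had 0 counts in HKO and 3 in flox and Cyp2b23 had none in any library.

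The enzyme genes shared some of the order of their libraries. Flox replicate 2 was the highest library for Cyp2b9, Cyp2b13, Cyp2b10 and Cyp2c55, and HKO replicate 2 the lowest for Cyp2b9, Cyp2b10 and Cyp2c55 (Cyp2b13 had at most 3 counts in any HKO library). The receptor went another way, as Nr1i3 was highest in HKO replicate 2 among HKO and in flox replicate 3 among flox. Flox replicate 5 was the second highest control for Cyp2b13 and the lowest for Cyp2b10 and Cyp2c55, so the enzymes did not share the whole order.

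The genes around the Cyp2b genes on chromosome 7 were examined next, in the deposited coordinates. Cyp2b10 starts at 25597045, Cyp2b13 at 25760922 and Cyp2b9 at 25872836, all on the plus strand. These starts lie 300575 bases below those of GENCODE M21 on GRCm38, so they do not follow that build. Which build they follow is uncertain. Of 53 other genes within 500 kb, 15 were tested and 3 were lower in HKO, against 3.07% of all genes. Cyp2a4, a steroid hydroxylase gene downstream of Cyp2b9, averaged 0.188 ± 0.183 CPM in HKO and 25.8 ± 32.7 CPM in flox. Cyp2a4 fell, at a log2 ratio of -7.05 ± 1.26 (edgeR adjusted p = 0.0106), and 36.1% of its 50-base stretches also occur in Cyp2a5. Axl, a receptor kinase of phagocytes and other cells, averaged 9.72 ± 3.07 CPM in HKO and 24.4 ± 10.9 CPM in flox (log2 fold change -1.33 ± 0.28, edgeR adjusted p = 0.0181).

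The third, the cytokine gene Tgfb1, averaged 3.04 ± 0.794 CPM in HKO and 7.19 ± 2.91 CPM in flox (log2 fold change -1.24 ± 0.30, edgeR adjusted p = 0.0317). Its call was lost without HKO replicates 1 to 4 or flox replicates 4 or 5 (edgeR adjusted p from 0.0541 to 0.0864). From Cyp2b10 through Cyp2a4, 11 of 13 genes other than the members had counts. Of these, 9 were read in flox alone, with few counts each. The most were 27 for the pseudogene Gm29920 and 20 for the noncoding Gm42375. The pseudogenes Gm8902 and Vmn1r-ps86 had only 1 count each, which can fall in only 1 group. All of these were named after their values were seen. The share of all genes read in flox alone was not counted, so nothing is read from the count of 9. Rnf170-ps, a pseudogene inside the span of Cyp2b13, was read in both groups, with 71 counts in HKO and 95 in flox and a log2 ratio of -0.28 ± 0.47 (edgeR adjusted p = 0.826).

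**Figure D3:**
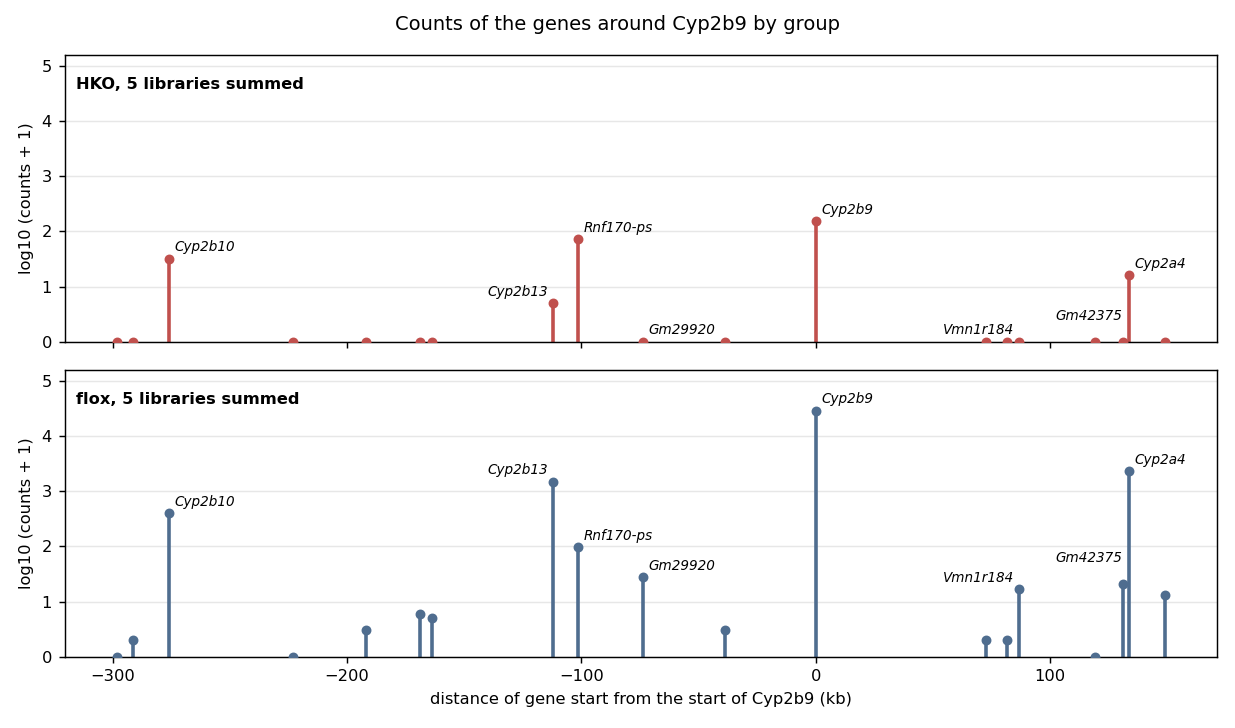
Counts summed over the 5 libraries of each group for genes around Cyp2b9, on a log10 scale after adding 1, against the distance of each gene start from that of Cyp2b9 in kb. Cyp2b9, with 154 counts in HKO and 28730 in flox, Cyp2b13 and Cyp2a4 stand higher in the flox panel, while Rnf170-ps has 71 counts in HKO and 95 in flox.

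The genes with the most similar pattern were sought over all 10 libraries. They were thus picked for sharing the high and low libraries of the member, so the likenesses below are a description and carry no test. Likeness was the root mean square (RMS) difference in log2 CPM between gene and member, each centred on its own mean, among 11773 genes with at least 1 CPM on average (11774 for Cyp2b13). The same 3 genes, Hao2, Cyp2a4 and Cyp2a22, came out nearest to Cyp2b9 (RMS 1.63, 1.81 and 1.85, where Cyp2b9 itself varied by 4.09 about its mean) and to Cyp2b13 (1.06, 1.13 and 1.13, against 3.32). Hao2, a hydroxyacid oxidase gene, stood at 0.130, 0, 0.132, 0.0643 and 0.0551 CPM in HKO replicates 1 to 5 and at 6.55, 15.9, 8.95, 1.15 and 6.85 CPM in flox replicates 1 to 5. Flox replicate 4 was the lowest control for Hao2 and Cyp2a4, as it was for Cyp2a22 (17.5 CPM, against 112 to 304 CPM in the other flox libraries).

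The nearest genes to Cyp2b10 were Ugt1a5, Scd1 and Cd36 (RMS 0.75, 0.84 and 0.94, against 1.79). Scd1, which desaturates fatty acids, stood at 11697 and 17928 CPM in flox replicates 1 and 2 and at 3276 to 4373 CPM in the other flox libraries. Ugt1a5, a glucuronosyltransferase gene, was also high in that pair, at 63.4 and 43.7 CPM, against 12.9 to 16.1 CPM. Cyp2c55 was nearest to Adrb1, Gstm2 and Serpina3f (RMS 0.44 for each, against 1.01), and Nr1i3 to Ino80b, Sumf2 and Fbxl6 (RMS 0.11, 0.14 and 0.15, against 0.43). The genes near Nr1i3 shared its low value in flox replicate 1, with 4.53 CPM for Ino80b, against 7.71 to 13.1 CPM in the other flox libraries.

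**Figure D4:**
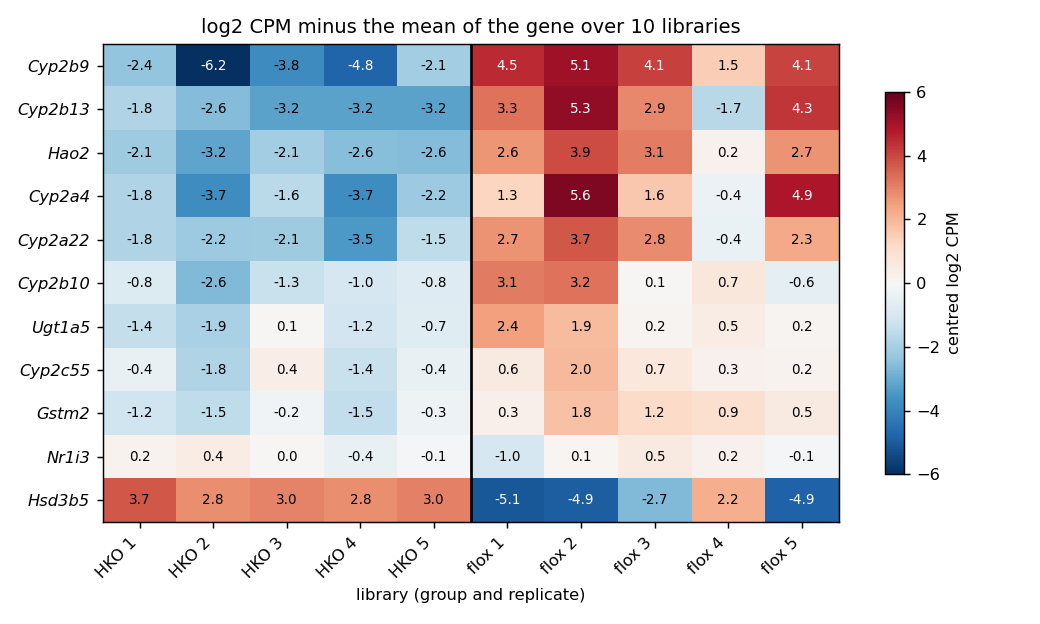
Log2 CPM of each gene in each library minus its mean over the 10 libraries, for the members, some of the genes nearest to them and Hsd3b5. Red is above and blue below the mean. Flox replicate 4 shows 1.48 for Cyp2b9 and -1.67 for Cyp2b13, below the other flox libraries, and 2.19 for Hsd3b5, above them.

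Cyp2b9 and Cyp2b13 are known as female-biased, so other genes with a known sex bias were set beside them. Of 29 female-biased genes other than the members, 19 passed the filter on low counts and were tested. Of these 19, 8 were lower in HKO, against 3.07% of all genes, and 11 did not pass the test. Their median log2 fold change was -0.75 against 0.01 over all genes. Without the filter, 9 of 28 were lower, against 626 of all 28708 genes. Hao2 and Cyp2a4, with 6 and 15 counts in HKO and 688 and 2288 in flox, passed the filter through the flox libraries. Hao2 (log2 fold change -6.58 ± 0.73, edgeR adjusted p = 0.000947) and the organic anion transporter genes Slc22a27 (-4.19 ± 0.41, 0.000841) and Slc22a26 (-3.95 ± 0.48, 0.00150) were called in all 17 alternatives, as was Cyp2a4. The calls of Fmo1, Abcd2, Prlr and Fmo2, named after their values were seen, were lost in 11, 6, 3 and 2 of the 17. Slc22a26 averaged 0.989 ± 0.758 CPM in HKO and 15.3 ± 6.32 CPM in flox. Flox replicate 4 was the lowest control for both transporters, with 4.70 CPM for Slc22a27 and 4.30 CPM for Slc22a26. The count of 8 was 4 without HKO replicate 4 and 5 without flox replicate 5.

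Male-biased genes differed in the other direction. Of 19 tested, 9 were higher in HKO, against 0.917% of all genes, and 10 did not pass, with a median log2 fold change of 1.60. Cyp7b1, an oxysterol hydroxylase gene, averaged 249.7 ± 63.7 CPM in HKO and 54.0 ± 16.9 CPM in flox (log2 fold change 2.21 ± 0.22, edgeR adjusted p = 0.000841). Mup20, which encodes a urinary pheromone protein, averaged 2393 ± 699.9 CPM in HKO and 687 ± 393 CPM in flox (log2 fold change 1.80 ± 0.34, edgeR adjusted p = 0.0136). Elovl3, a fatty acid elongase gene, averaged 219 ± 135 CPM in HKO and 57.7 ± 32.5 CPM in flox (log2 fold change 1.92 ± 0.40, edgeR adjusted p = 0.0181). Selenbp2, which encodes a selenium-binding protein, rose by 2.37 ± 0.52 on the log2 scale (edgeR adjusted p = 0.0229), a call lost without HKO replicate 5 or flox replicates 1, 2 or 5 (edgeR adjusted p from 0.0514 to 0.0565) and with robust dispersion (0.0753).

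The count of 9 was 4 without HKO replicates 1 or 4, 5 without HKO replicate 2 or flox replicates 1, 2 or 5, and 14 without flox replicate 4. The calls of Mup3, Slco1a1, Cyp2d9, Gstp1 and Cyp4a12b, named after their values were seen, were lost in 9, 6, 6, 6 and 5 of 17 alternatives. Hsd3b5, a male-biased steroid dehydrogenase gene chosen after its values were seen, stood at 223, 116, 133, 117 and 137 CPM in HKO replicates 1 to 5. In flox replicates 1 to 5 it stood at 0.367, 0.426, 2.51, 76.3 and 0.453 CPM. Flox replicate 4, the control with the least Cyp2b9 and Cyp2b13, was thus the one with the most Hsd3b5. For these genes it lay nearest to the HKO libraries, but not for all genes. It had the most Acss2 of the 10 libraries, at 129 CPM against 56.5 to 86.9 CPM in the other flox libraries. It also had the most Cyp2a5, at 1191 CPM against 539 to 691 CPM in the other flox libraries. The log2 fold change of Hsd3b5 was 3.18 ± 1.15 and did not pass (edgeR adjusted p = 0.160).

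**Figure D5:**
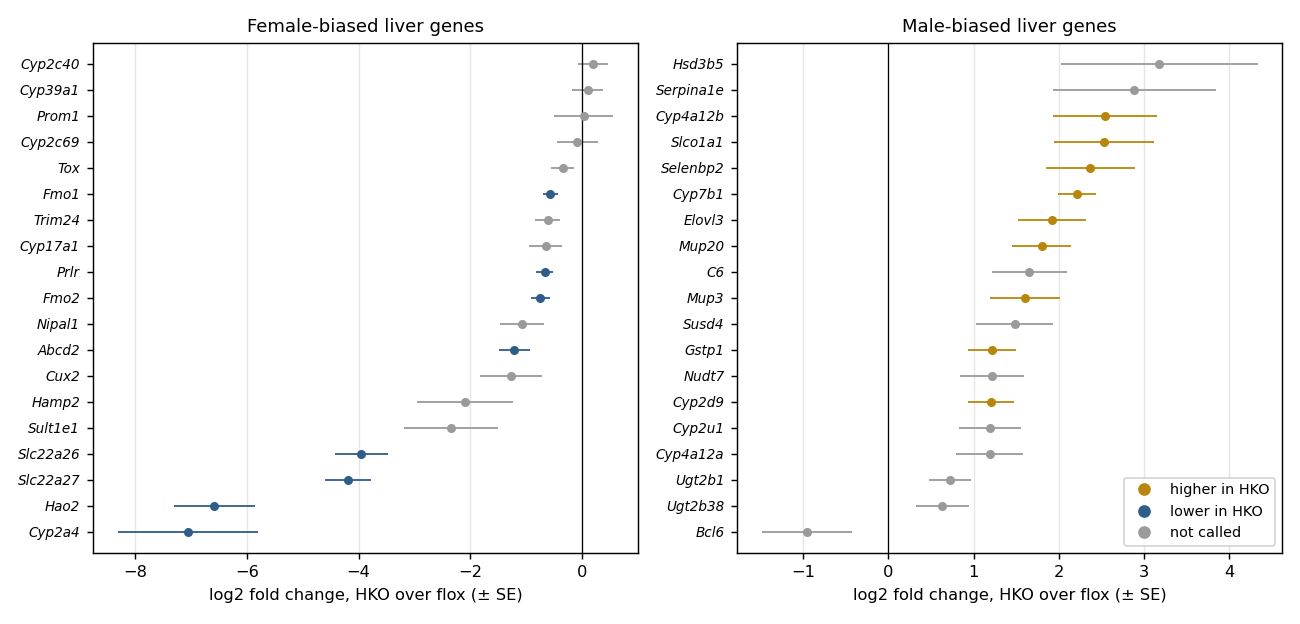
Log2 fold change of HKO over flox with its SE (n = 5 per group) for 19 tested female-biased (left) and 19 tested male-biased liver genes (right), without the members. Coloured points passed the edgeR test, 8 lower on the left and 9 higher on the right.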

How the data were processed

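RNA was sequenced from 10 liver samples, 5 HKO and 5 flox. The authors deposited unscaled read counts, 1 whole number for each gene and library. Per the submitters' processing notes, mm10 and DESeq2 were used. The deposited gene coordinates do not match mm10 (GRCm38), as 2.83% of 52073 shared genes had the start and end of GENCODE M21. Aligner, counting program, annotation and strand setting (not given in the sources used here) are unknown. Gene lengths (bases) came from the same deposited table.

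The members and gene lists were chosen with earlier results of these data known. The difference between HKO and flox was tested in edgeR 4.0.16 (R 4.3.3) with its quasi-likelihood test, two-sided, with TMM normalisation and filterByExpr by group, which left 14068 of 56748 genes. P-values were Benjamini-Hochberg adjusted over these genes, with a threshold of 0.05. Log2 fold changes are HKO over flox, and their SE is the absolute value over the square root of F. Library pairs within a group differed beyond sampling noise (smallest chi-square per degree of freedom 24.6). Of the 42 listed targets of CAR activators, 41 were in the table.

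The genes named were the members, Acss2, the other Cyp2b genes, up to 4 called genes of smallest p per list (or the 2 of highest level) with the first gene of each list, the 3 genes nearest in pattern to each member (predicted genes with Gm or Rik symbols left out), and called neighbours within 500 kb. Transcripts came from GENCODE M21 and were aligned with Biopython 1.88, promoters from RefSeq GRCm38.p6, where all 5 members were matched by symbol. The gene test was tested on simulated data. DESeq2 1.42.0, other scalings and filters, robust dispersion, a replicate block and leaving out each library were the alternatives, and intervals from counts cover counting error only.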

Additional observations from a re-analysis of the deposited data

Results flagged for a closer look

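Single libraries that stood apart from the other 4 of their group were sought in log2 CPM among 34 genes, in 61 groups with a highest count of at least 10, by the ratio of gap to range (critical value 0.71). Chance marks about 1 group in 20, and 7 were marked. Flox replicate 4 was marked low for Cyp2b9 (49.6 CPM, against 299 to 599.7 CPM in the other flox libraries), for Slc22a27 (4.70 CPM, against 18.2 to 26.3 CPM) and for Slc22a26 (4.30 CPM, against 16.7 to 20.4 CPM). Flox replicate 2 was marked high for Cyp2c55, at 4.87 CPM against 1.36 to 1.91 CPM. HKO replicate 4 was marked high for Cyp7b1 (363 CPM, against 215 to 228 CPM in the other HKO libraries) and low for Sumf2 (5.33 CPM, against 7.39 to 8.32 CPM). Flox replicate 1 was marked low for Sumf2, at 3.92 CPM against 7.45 to 9.12 CPM.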

How the results depend on the processing

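All log2 fold changes of Cyp2b9, Cyp2b10, Cyp2c55 and Nr1i3 moved by less than the SD between libraries in each alternative run that held the gene. Cyp2b10 had 16 such runs, as it did not pass a filter of at least 1 CPM in 5 libraries. The log2 ratio of means of Cyp2b13 (-8.37) also moved by less than that SD, at -10.1 to -7.62 in 13 alternatives. Not all of these kept Cyp2b13 in the fit. Where a fit kept it, its log2 fold change lay between -9.54 (without HKO replicate 1) and -7.88 (without HKO replicate 5). It was -8.20 ± 0.90 (SE) without a filter on low counts. The count of all called genes was 561, and 1021 in DESeq2. With 1 library left out it ran from 289 to 673, and that of genes raised by CAR activators from 6 to 10. In the same runs that of partners of CAR ran from 1 to 2, that of female-biased genes from 4 to 8 and that of male-biased genes from 4 to 14. The male-biased count was 17 without a filter on low counts, 5 with robust dispersion and 15 with the replicate block. The replicate numbers were not taken as pairs, since same-numbered libraries deviated together (correlation over 0.1) in 1 of 5 pairs, and the replicate block gave 448 called genes. Nr1i3, near 0 throughout, was below 0 in 5 of 17 alternatives. Signs also reversed in other genes that did not pass, and the cause was not tested. They were those of Ino80b with library totals alone (-0.093) and, with 1 library left out, of Ino80b (-0.16 to 0.17, below 0 without HKO replicates 2 or 3 or flox replicates 1 or 5), Rxra (-0.17 to 0.014, above 0 without HKO replicate 3) and Sumf2 (-0.20 to 0.050, above 0 without HKO replicate 4 or flox replicates 2 or 3). Counting Cyp2b9 and Cyp2b13 as 1 gene was chosen after seeing the data. With 31 and 62 counts in HKO, Cyp2b10 and Cyp2c55 are limited by depth.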
